A study of Mus musculus with 2 samples.

Results

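The miRNA genes described here lie in an intron of Sfmbt2 and carry mostly Mir297, Mir466, Mir467 and Mir669 names. They were chosen by position and not by level, as every gene of the deposited miRNA tables that starts in or at the edge of the Sfmbt2 gene body on the plus strand of chromosome 2 (chr2:10370510-10595253, GRCm38/mm10). The rule found 107 of the 1973 genes in the tables. The study measured small RNA in stomach tissue of the B6NCrl mouse strain at embryonic day 16.5, in 2 libraries of 1 group with no treatment, no genetic change and no contrast. Both libraries came from healthy male and female embryos pooled together, and both carry the same donor label. Replicate 2 pooled the stomachs of 41 embryos, and the labels describe replicate 1 as a pool without its number. Pooled whole tissue gives no value for a single embryo or cell type, and fewer cells of a type and less RNA per cell cannot be told apart.

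A miRNA is cut from a hairpin in a longer transcript, and the bases at its 5′ end, called the seed, pair with target mRNAs. Sfmbt2 encodes a Polycomb-group protein and is an imprinted gene known for expression from the paternal copy in the extraembryonic tissues. Its miRNA hairpins form one of the largest miRNA clusters of the mouse genome, built from repeated units rich in CA and TG steps, and they are known for their expression in the placenta.

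In the set of RefSeq miRNA sequences used here (GRCm38.p6), genes were looked up by symbol. Entries were matched for 0 of the 107 genes in the intron. They were matched for 8 of the 10 genes of the same named families that lie elsewhere in the genome. The 0 describes that set and does not show that RefSeq lacks the genes in the intron. Mature sequences of 5 of those 8 genes are shown because they spell out the CA and UG repeats that mark these families. Capitals mark the seed, bases 2 to 8 from the 5′ end.
miR-466i-3p: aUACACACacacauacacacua
miR-466j: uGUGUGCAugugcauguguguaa
miR-467f: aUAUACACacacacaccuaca
miR-467h: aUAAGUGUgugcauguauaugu
miR-669n: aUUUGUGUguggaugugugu
These lie at chr13:17747552-17747573 on the plus strand for miR-466i-3p, chr10:60960802-60960824 on the plus strand for miR-466j, chr11:69635419-69635439 on the minus strand for miR-467f, chr9:115381898-115381919 on the plus strand for miR-467h and chr3:115979905-115979924 on the plus strand for miR-669n. The 8 matched genes had 8 different seeds. None of the 8 whole mature sequences was found in a hairpin of the Sfmbt2 intron (0 matches). The 10 family genes elsewhere had 1 read in all, at Mir466q in replicate 1. Among reads placed once in the genome, all but that read under these family names thus came from the intron. Reads placed in several positions were assigned to no gene, and their origin was not measured. The whole miR-467h sequence was found in 3 annotated hairpins, so its count of 0 may follow from the counting.

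The 107 hairpins were spread over 53.0 kb, from 10465287 to 10518279. In the GENCODE M21 annotation they all lay in intron 10 of the Sfmbt2 transcript with 23 exons, and the intron itself runs from 10461473 to 10523944. No member overlapped another. By name there were 14 Mir467, 20 Mir466, 20 Mir669 and 5 Mir297 genes, and 48 genes with a Gm number, a placeholder for a gene model without a family name. The annotation holds 12 further miRNA genes in the same window (Mir466b-1, Mir466e, Mir466c-1 and the copies Mir669a-4 to Mir669a-12) that matched no row by identifier and were not analysed here.

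The repeats were visible in the hairpins themselves. Steps of TG, GT, CA or AC made up a median of 48.6% of the neighbouring base pairs in a member hairpin and 26.6% in the hairpins of the other genes. The 107 hairpins held 84 different sequences. In the middle of the intron, the 10 copies of Mir467a followed each other at a median distance of 2462 bases (range 2413 to 4880). For each hairpin, the share of its 20-base windows found in no other annotated miRNA hairpin at another place, on either strand, was computed over 2202 hairpins, and is called its own sequence below. The median share of own sequence was 25.3% for members and 100% for the genes outside the cluster. Of the 107 members, 42 had no own window at all.

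The libraries held 15746238 reads in replicate 1 and 15958656 in replicate 2. Reads assigned to the sense strand of a miRNA gene numbered 7734578 and 7983714, and levels are given as CPM, counts scaled to the total of these reads. Reads placed in several genome positions formed a total of their own in each table, 25.1% and 25.2% of all reads, and were assigned to no gene, so every level here comes from reads placed once. A count of 0 allows up to 3 reads, or 0.388 CPM in replicate 1 and 0.376 CPM in replicate 2. Intervals and this limit cover counting error only, and the spread between the pools may be in part technical. Smooth muscle miRNA genes summed to 202084 and 197398 CPM and epithelial ones to 61175 and 63047 CPM. Most of the smooth muscle sum was Mir143 (196767 and 194858 CPM), while Mir145a had 5317 and 2540 CPM. Among the epithelial genes, Mir200b (10804 and 7980 CPM) and Mir200c were higher in replicate 1. Mir429 (21476 and 25747 CPM), Mir375, Mir141 and Mir200a were higher in replicate 2. Striated muscle miRNA genes (Mir206, Mir133b and Mir499) summed to 3247 CPM in replicate 1 and 109 in replicate 2. Most of this was Mir206 (3184 and 99.8 CPM), while Mir208b, a striated muscle gene outside the sum, had 110 and 89.2 CPM. Erythroid ones summed to 1224 and 577 CPM, with Mir451a at 1086 and 418 and Mir144 at 139 and 159.

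The intron gave 43298 reads in replicate 1 and 38508 in replicate 2. These were 0.560% of the assigned reads (95% exact Clopper-Pearson interval 0.555 to 0.565) and 0.482% (0.478 to 0.487), with a mean of 0.521% ± 0.0548 (SD, n = 2). The difference between the libraries was thus larger than counting error. It was not particular to the cluster, since under this scaling the median gene tested further on was also higher in replicate 1 (log2 ratio 0.21). Most members had no read: 32 of 107 had a read in either library, 24 had one in both, and 75 had none. Only 8 members, 7.48% of them, reached 10 CPM in both libraries, against 14.0% of all genes in the tables. Members also had less own sequence than other genes, and the rates by share of own sequence are given further on. No read fell on the strand opposite to a member (0 reads).

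Mir467 hairpins carried most of the reads, and they did so from 3 genes. Mir467e (chr2:10505721-10505807) had 1825 CPM in replicate 1 and 1416 in replicate 2, 1621 ± 289 on average (SD, n = 2), and ranked 78 among the 1973 genes. Mir467d (chr2:10507630-10507714) had 1666 and 1495 CPM, or 1581 ± 121, at rank 82. The order of these 2 genes was not settled, since the ratio of Mir467d to Mir467e was 0.913 in replicate 1 and 1.06 in replicate 2. Per 100 bases of hairpin they were as close, at 1863 and 1860 mean CPM. Mir467c (chr2:10473931-10474027), which lies on the other side of the Mir467a copies, had 1105 and 1055 CPM, or 1080 ± 35.3, at rank 96. It was below both in each library. The 3 genes together held 82.1% of the cluster's reads in replicate 1 and 82.2% in replicate 2.

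**Figure D1:**
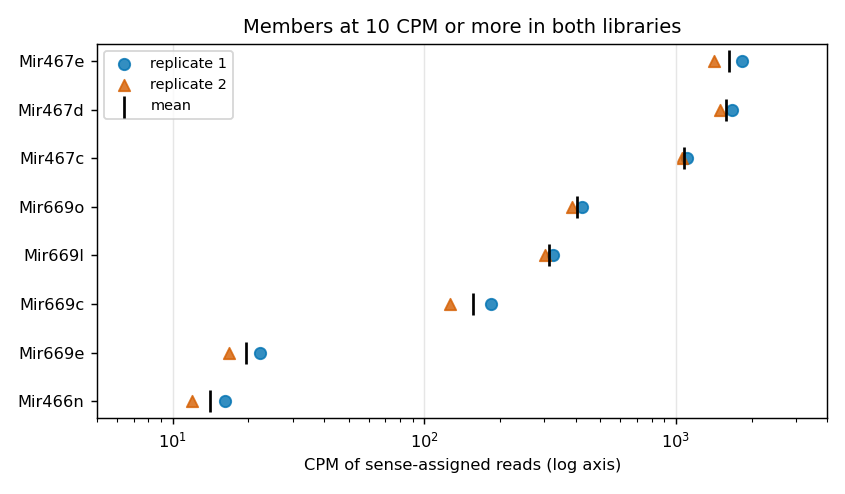
Levels of the 8 leading members, in CPM (horizontal log axis), with a circle for replicate 1, a triangle for replicate 2 and a bar at the mean. The 3 Mir467 genes stand at the top, and Mir669c and the 2 lowest genes show the widest gaps between libraries relative to their level.

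Mir669 genes formed the next tier. Mir669o (chr2:10514300-10514395) had 423 and 385 CPM, with a mean of 404 ± 27.1 (SD, n = 2). Mir669l (chr2:10468971-10469068) had 324 and 302 CPM, or 313 ± 16.0. The lower value of Mir669o lay above the higher value of Mir669l, so their order was the same in both libraries. Mir669c (chr2:10509296-10509404) had 185 and 126 CPM, or 156 ± 41.2, the widest relative spread of the 6 members above 100 CPM. Far below these was Mir669e (chr2:10467495-10467613), with 22.2 and 16.8 CPM, although 95% of its hairpin was its own sequence. Mir466n (chr2:10513741-10513834), the only Mir466 gene to reach 10 CPM, had 16.2 and 11.9 CPM. The ranges of Mir669e and Mir466n almost touched.

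These 8 genes held 99.4% of the cluster's reads in replicate 1 and 99.7% in replicate 2. All 99 remaining members shared only 243 and 121 reads. First among them was Mir297a-2, with 74 and 16 reads, or 9.57 and 2.00 CPM. Mir669h, the last hairpin of the cluster, had 43 and 39 reads. Mir466h had 31 reads in replicate 1 and 1 in replicate 2. Mir467b, the highest gene between the Mir467a copies, had 14 and 16 reads. A further 16 members had between 1 and 9 reads over both libraries, too few to order.

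Summed by name, Mir467 genes gave 4283 ± 445 CPM (SD, n = 2), 82.2% ± 0.103 of the cluster. Mir669 genes gave 899 ± 88.3 CPM, or 17.3% ± 0.120. Mir466 genes gave 20.3 ± 9.00 CPM and Mir297 genes 5.85 ± 5.44 CPM. The 48 genes with Gm numbers gave 2.48 ± 0.146 CPM. The Mir467 and Mir669 shares of the cluster thus moved by far less between the libraries than the total did. Shares within the cluster do not depend on the scaling of a library, while the total does. Single genes moved more than their family, with Mir467e at 32.6% of the cluster in replicate 1 and 29.4% in replicate 2. For Mir297 the SD was close to the mean. The Mir467 sum came from 5 of 14 genes with a read, Mir669 from 8 of 20, Mir466 from 10 of 20, Mir297 from 2 of 5 and the Gm genes from 7 of 48. More Mir466 genes than Mir467 genes were detected, at a summed level lower by a wide margin.

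**Figure D2:**
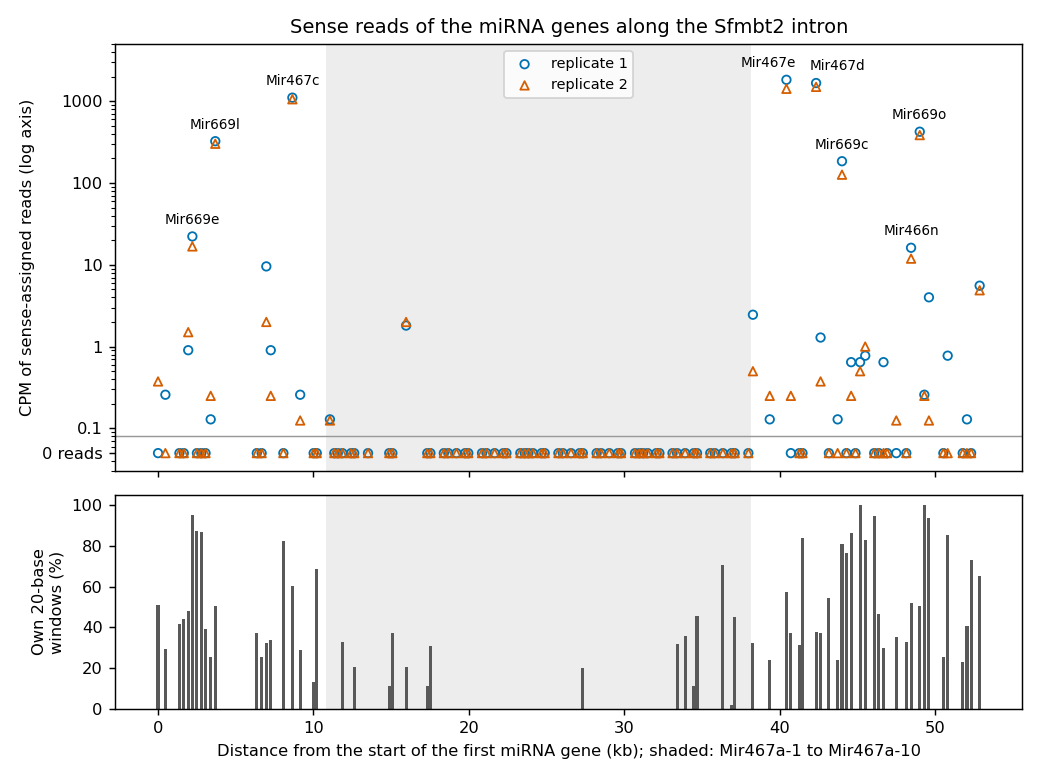
CPM of each member in each library (upper panel, log axis, with a row for 0 reads) and the percent of its 20-base hairpin windows found in no other hairpin (lower panel), against distance in kb from the start of the first hairpin. The shaded stretch runs from Mir467a-1 to Mir467a-10: members with reads lie on both sides of the shaded stretch, and within it only Mir467a-1 and Mir467b had any.

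Along the intron, 1 long central stretch was nearly empty of reads, and members with and without reads were mixed on both sides of it (3 stretches, set after the values were seen). The stretch from Mir467a-1 to Mir467a-10 covered 27.0 kb and held 55 of the 107 members. Only 2 of them had a read, Mir467a-1 and Mir467b, for 15 and 17 reads or 0.0394% of the cluster. Before it, 10 of 20 members had a read and 3 reached 10 CPM (Mir669e, Mir669l and Mir467c). Beyond it, 20 of 32 members had a read and 5 reached 10 CPM. The members beyond it held 72.6% ± 1.72 of the cluster's reads (SD, n = 2) and those before it 27.4% ± 1.72.

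That central stretch was also where the hairpins had least sequence of their own. Of its 55 members, 40 had no own window, against 0 of 20 before it and 2 of 32 beyond it. The remaining 15 had some, and 14 of these had no read either. The 10 Mir467a copies all had none, and together they had 1 read in each library, at Mir467a-1. Across the cluster, 38 members had a hairpin identical to another hairpin, and 0 of them had a read. A read inside such a hairpin matches at least 2 places, so the 0 follows from the counting and gives no level. The other 69 members had a hairpin of their own, and 32 of these had reads.

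**Figure D3:**
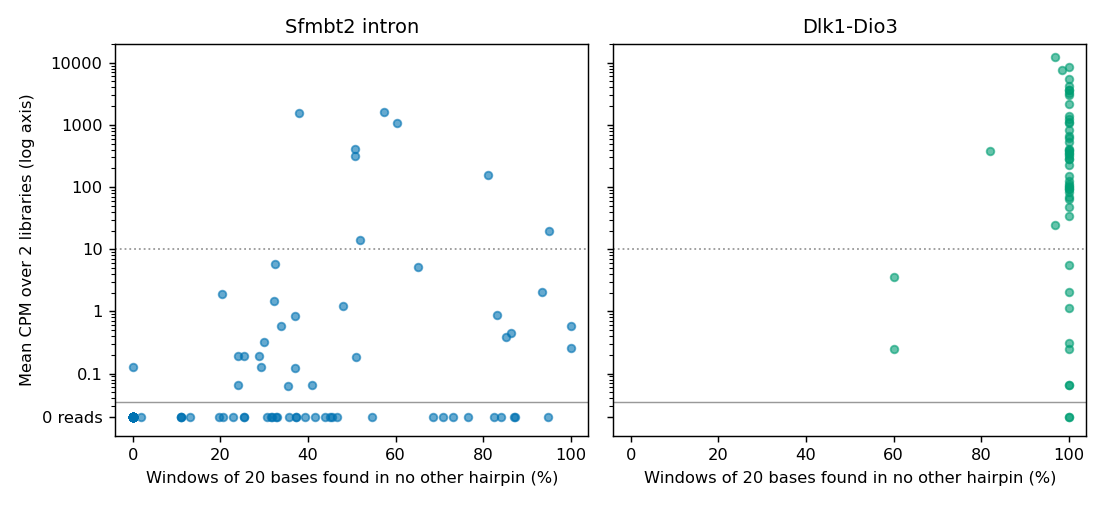
Mean CPM over both libraries (log axis, with a row for 0 reads) of each gene against the percent of its 20-base hairpin windows found in no other hairpin, for the Sfmbt2 intron and for Dlk1-Dio3, a second miRNA cluster described further on; the dotted line marks 10 CPM. Of the 42 members at 0%, 1 had a read, while those above 50% range from no read to the 1621 CPM of Mir467e, and nearly all Dlk1-Dio3 genes stand at or near 100%.

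By share of own sequence, in classes set after the values were seen, 1 of 42 members with 0% had a read (2.38%). Between 0 and 50%, 16 of 40 had a read (40%), and from 50% to under 100%, 13 of 23 had one (56.5%). Only Mir466g and Gm22239 had 100%, and they had 4 and 9 reads over both libraries. Genes outside the cluster had reads in 1.39%, 2.34%, 31.0% and 62.3% of the same classes. In these classes 0 of 42, 1 of 40, 7 of 23 and 0 of 2 members reached 10 CPM in both libraries (0%, 2.5%, 30.4% and 0%). Outside the cluster the rates were 0.463%, 0%, 16.8% and 21.7%. Own sequence did not order the members by level. Mir467d had 37.9% and shared 62.1% of its windows with Gm25022, whose hairpin is that of Mir467a copies, yet it was among the 2 highest. Mir467e had 57.4% and Mir467c 60.3%, and each had the other as its closest hairpin. Mir669o and Mir669l had 50.6% each and Mir669c 81.1%. Reads placed in several positions were not assigned, and how many were left out for each of these genes was not measured.

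Members without a read were not all without sequence of their own. Of the 25 members with at least 50% of own sequence, 10 had no read, Mir669b (87.2%) and Mir669i (73.1%) among them. For these a level above the limit of 3 reads was not detected in the reads placed once. Own sequence was set against annotated hairpins and not against the genome, so it does not show that a read could be placed once. Among all 75 members without a read, Gm24342 shared windows with the most other hairpins (128), followed by Gm22051 (51), and 5 members shared with 50 each, among them Mir669k, Gm25701 and Gm26431.

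The imprinted Dlk1-Dio3 region gave a second miRNA cluster for comparison, counted the same way. It is a large group of miRNA genes on chromosome 12, expressed from the maternal copy, and 52 genes of the tables fall in its window on the plus strand, between 109563692 and 109747960 (GRCm38/mm10). Of the 52, 50 had a read (96.2%) and 41 reached 10 CPM in both libraries (78.8%), against 32 (29.9%) and 8 (7.48%) of 107 in the Sfmbt2 intron. Its genes took 7.07% of the assigned reads in replicate 1 and 6.02% in replicate 2, which was 12.6 and 12.5 times the share of the Sfmbt2 intron. The 3 highest were Mir411 at 12259 ± 563 CPM, Mir127 at 8433 ± 717 and Mir487b at 7531 ± 725 (SD, n = 2). The median gene had 285 CPM there and 0 CPM in the Sfmbt2 intron. The regions also differed in sequence: the median gene of Dlk1-Dio3 had 100% own windows against 25.3%, no gene there had 0% against 42 of 107, and TG, GT, CA or AC steps made up 28.6% of its median hairpin. The share of reads was lower in replicate 2 for both regions. Scaled in the same way, by total assigned reads, the median gene of the 289 tested below was also lower in replicate 2. Its log2 ratio of replicate 1 to replicate 2 was 0.21, so a lower value in replicate 2 was not particular to these regions. Both regions were measured in the same 2 libraries, too few for a test over libraries, so these values are given side by side without a test.

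Between the libraries, no leading member differed by 2-fold or more. The counts of each gene were compared by a two-sided exact binomial test after TMM scaling, with Benjamini-Hochberg adjustment over all 289 genes whose mean reached 10 CPM. It compares these 2 libraries, not conditions. None of the 8 members tested (0 of 8) differed at an adjusted p under 0.05 and at least 2-fold, where 23 of the 289 genes did (7.96%), so a count of 0 among 8 lay near the background. Their log2 ratios of replicate 1 to replicate 2 ran from -0.12 at Mir467c to 0.36 at Mir669c, with a median of 0.08 beside 0.02 for all 289 genes, whose SD was 0.64. At an unadjusted p under 0.05 there were 3 members, and the same number at an adjusted p under 0.05 with no minimum fold, where 76.1% of the 289 genes passed. They were Mir467e (ratio 1.14, exact binomial adjusted p = 1.84e-23), Mir669c (1.29, adjusted p = 1.40e-09) and Mir467c (0.923, adjusted p = 3.61e-07). Scaling by total assigned reads moved the median of all genes to 0.21. It turned the sign of 4 of the 8 members, to 0.067 for Mir467c, 0.16 for Mir467d, 0.14 for Mir669o and 0.10 for Mir669l, and left all 8 higher in replicate 1. The direction of these 4 was therefore not settled.

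**Figure D4:**
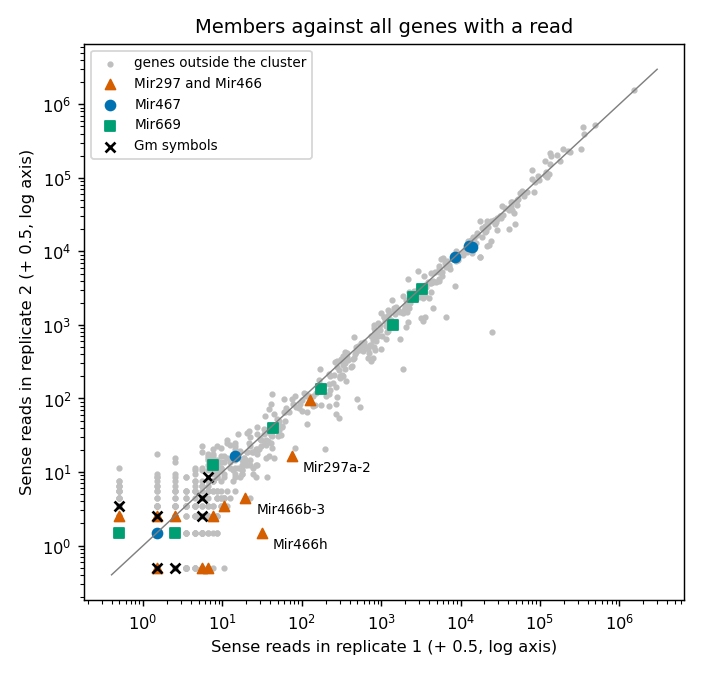
Sense reads in replicate 2 against replicate 1, each with 0.5 added (log axes), for every gene with a read, with the members coloured by family and a line drawn through equal read numbers. The leading members lie near the line, and Mir297a-2, Mir466b-3 and Mir466h lie on the side of replicate 1.

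Members below 10 CPM were tested at a lower minimum. With the minimum set to 1 CPM, 14 members were tested among 437 genes, of which 49 were called (11.2%), 32 of them higher in replicate 1 (7.32%). The 3 members called were Mir297a-2, Mir466h and Mir466b-3, each higher in replicate 1, and their p-values cover counting error only. Mir297a-2 differed by a ratio of 4.11 (74 and 16 reads, exact binomial adjusted p = 1.34e-08). Mir466h differed by 19.1 (31 and 1 reads, exact binomial adjusted p = 1.81e-07), on a single read in replicate 2 that left the ratio anywhere from 4.70 to 1149 (95% interval). Mir466b-3 differed by 3.94 (19 and 4 reads, exact binomial adjusted p = 0.00678). Mir466h and Mir466b-3 were under 1 CPM in replicate 2, at 0.125 and 0.501 CPM, and entered the test only through replicate 1, so their direction was fixed by the minimum.

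The Mir297 and Mir466 genes below 10 CPM were also summed, as a group formed after the values were seen. Replicate 1 held 156 reads of these 24 genes against 32 in replicate 2, and of the 11 with a read, 9 had more in replicate 1. Most of these reads came from the 3 genes just named, and the other 21 genes had 32 and 11 reads. The Mir669 genes below 10 CPM had 52 and 53 reads, the Mir467 genes 15 and 17, and the Gm genes 20 and 19. The difference between families was not tested. The striated muscle sum given above was also higher in replicate 1, and so was the erythroid sum, through Mir451a and not Mir144. The hepatocyte miRNA gene was higher as well (1821 and 1210 CPM). The stratified epithelium sum was lower (28559 and 38234 CPM), through Mir203 (17200 and 27343 CPM), while Mir205 had 11359 and 10891 CPM. The part of these genes in the result was not tested.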

How the data were processed

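Small RNA reads were counted per miRNA gene by the authors. The deposited counts are whole reads per gene in 3 columns without names. Column totals show a count without regard to strand, a sense and an opposite-strand count, and the last pair adds up to the first in every gene. Reads unmapped, placed in several positions or in no gene form separate totals (49.2% and 48.5% of all reads). The assembly is mm10 and the counting annotation GENCODE M4, per the text deposited with the files. For the aligner, its settings and the counting tool, the sources used here give nothing.

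The sense column was used. CPM are counts over sense-assigned reads. Members were found by position in GENCODE M21 through gene identifiers without version (1894 of 1973 matched, and the other 79 held 3 reads). Shares have exact Clopper-Pearson 95% intervals. Libraries were compared by exact binomial tests with TMM factors (edgeR 4.0.16, R 4.3.3) computed on genes whose mean reached 10 CPM, with library sizes over all genes. A count of 0.5 was added for ratios, and calls needed adjusted p under 0.05 and 2-fold. DESeq2 1.42.0 size factors, other minimums and folds, the strand column and leaving out each library were the alternatives. The quasi-likelihood test had no residual degrees of freedom with 1 library on each side. Other steps used Python 3.11.15, pandas 2.3.3, numpy 2.4.6, scipy 1.17.1 and matplotlib 3.10.9. The test was checked on simulated counts with counting error only, which cannot show how it behaves with spread between pools.

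Named were the 12 members with most CPM, every member at a mean of 10 CPM or past the test, at most 5 without a read by shared windows, and the 3 highest comparison genes. Other named members were chosen after their values were seen. Genome matches and seeds of mature sequences had been planned, and hairpin windows and gene symbols took their place. The members and lists were chosen with earlier results of these data known.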

Additional observations from a re-analysis of the deposited data

How the results depend on the processing

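The cluster share was 0.258% with all reads of the library as the denominator and 0.359% without Mir467e, and 0.482% to 0.560% with each library alone. With at least 10 reads required within a single library, 15 members were detected in place of 32. Members differing between the libraries numbered 0 of 8 in the main test. They numbered 3 of 14 at a mean of 1 CPM or more (Mir297a-2, Mir466h and Mir466b-3). With no filter on low counts they numbered 3 of the 32 with a read. With no minimum fold they were a different 3, of 8 tested (Mir467e, Mir669c and Mir467c). All genes differing numbered 49 of 437 (11.2%), 55 of the 751 with a read and 220 of 289 (76.1%) under the same 3 settings. At 1.5-fold they numbered 58 of 289, against 23 of 289 (7.96%) in the main test. Scaling by total assigned reads turned the sign of 4 of the 8 leading members, Mir467c, Mir467d, Mir669o and Mir669l. Mir467c went from -0.12 to 0.067 on the log2 scale, and all 8 were then higher in replicate 1. This change of scaling moved the log2 ratio of every gene by the same amount, and the median of all genes from 0.02 to 0.21. The Dlk1-Dio3 share was 12.5 times that of the cluster, but its mean CPM per gene was 25.8 times and its median over the genes with a read, taken in each library and then averaged, 461 times. Of the other alternatives that kept both libraries, 24 values of the main results stayed within their spread, or within 1.5 times for counts. With 2 libraries, leaving one out cannot move a mean beyond its SD. No paired analysis of samples was possible because there was 1 group of them. Matches of the first 18 or 20 bases of mature sequences were not run. Depth limits the 16 members with 1 to 9 reads, and levels leave out reads placed in several positions.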
